A study of Mus musculus with 4 samples.

Results

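CD4+ dendritic cells (DCs) of the mouse spleen were compared with double-negative (DN) spleen DCs, which carry neither CD4 nor CD8 at the surface. The comparison took the array titled for CD4+ DCs against the array titled for DN DCs, which are 2 of the 4 samples of the study. The other 2 arrays, of CD8+CX3CR1+ and CD8+CX3CR1- DCs, serve here as reference points. All 4 populations came from spleens of C57BL/6 mice that carried 1 copy of a green fluorescent protein allele in place of Cx3cr1 (Cx3cr1gfp/+), the chemokine receptor for fractalkine, and none had been treated with BMP4. The spleens were digested with collagenase D, CD11c+ cells were enriched with magnetic beads, and CD11chi cells were sorted by flow cytometry. Biotin-labelled material made from total RNA was put on Affymetrix Mouse Genome 430.2 arrays, 1 per population. The sources used here do not give the age or sex of the mice, their number, any pooling of them, or the gates that separated the subsets. A label field for the cell type disagrees with 2 of the 4 titles, naming CD4+ cells for the DN array and CD8+CX3CR1+ cells for the array titled CD8+CX3CR1-, so the groups rest on the titles. With 1 array on each side there is no replicate spread and no test, and every difference below is one between these 2 arrays.

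DCs sample antigen and display it to T cells. Spleen DCs fall into a CD8+ lineage, often called cDC1, which depends on the transcription factors Irf8 and Batf3 and is known for cross-presenting material from dead cells on MHC class I, and a CD11b+ lineage, often called cDC2, which depends on Irf4 and Notch signals and is known for presenting antigen on MHC class II. Most spleen cDC2 carry CD4 at the surface, and DN cells are usually placed beside them.

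Values are MAS5 signals, a linear measure of brightness per probe set. The array carried 45101 probe sets, of which 34945 were named by 1 gene symbol. A gene was represented by its brightest probe set, judged by the 4-array mean of log2 signal. The floor, 55.7, is the 90th percentile of 127 probe sets for odorant, pheromone and taste receptors and hair keratin-associated proteins, and signals under it were raised to it, so a fold against such a signal is a lower bound ("at least"). Differences are log2 of the signal on the CD4+ array minus log2 of the signal on the DN array. Of 18193 named genes, 11676 were above the floor on the CD4+ or the DN array and are called detected.

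The Cd4 transcript bore out the titles of both arrays. Its main probe set read 564 on CD4+, 93.9 on DN and 93.3 on CD8+CX3CR1+ cells and was under the floor on CD8+CX3CR1- cells. A second, dimmer probe set read 75.2 on CD4+ cells and was under the floor on the others. Cd4 was thus 6.00-fold higher on the CD4+ array, although a signal above the floor was present on the DN array. Cd8a, which encodes the alpha chain of CD8, was below the floor in CD4+ cells and at 129.5 in DN cells, against 2530.2 in CD8+CX3CR1+ and 4742 in CD8+CX3CR1- cells. Cd8b1, the beta chain, was under the floor on both the CD4+ and the DN array. Itgax, which encodes CD11c, was high on both arrays, with 6415 on CD4+ and 4042 on DN. Itgam, which encodes CD11b, was at or near the floor on both, with 65.1 on the DN array, so these probe sets give no reading of the CD11b lineage. Cx3cr1 was alike on both arrays, at 275 on CD4+ and 258 on DN, and read 894 on CD8+CX3CR1+ and 97.3 on CD8+CX3CR1- cells, the order their titles give.

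The CD4+ array stood somewhat apart in quality. It had 47.6% of all probe sets above the floor, against 41.0% to 42.5% on the other 3 arrays, and its Gapdh 3′ over 5′ signal ratio was 11.8, against 7.56 on the DN array and up to 8.98 on the others. This ratio is used as a measure of RNA integrity and of the length of the labelled products. The arrays had been scaled to the same trimmed mean, and the median difference over all detected genes was 0.06. That median was higher among genes with a mean signal under 100 (0.18) and over 3000 (0.16) than between them (-0.04 to 0.04). With the arrays scaled to equal medians instead, the median over all detected genes was -0.17. List medians are therefore read against 0.06. The part of array quality in the differences was not tested.

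Few genes separated the CD4+ and DN arrays by a wide margin. At 4-fold or more, 9 genes were higher on the CD4+ array (0.0771% of detected genes) and 23 were lower (0.197%). This order turns with the floor, since a floor at the 75th percentile gave 50 higher and 39 lower, and no floor 1997 and 1216. At 2-fold the split ran the other way, with 547 genes higher (4.68%) and 407 lower (3.49%), and this order depends on the scaling: quantile normalisation gave 468 and 457, and equal medians 225 and 809. Of the 9 higher genes 3, and of the 23 lower ones 8, had a signal over 500 on the brighter array. The genes just inside and just outside the 4-fold limit were close in value: Fpr2 (at least 4.08-fold) and Tlr5 (3.96-fold) among those higher on CD4+, and Septin3 (4.01-fold) and Klrk1 (3.99-fold) among those lower.

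**Figure D1:**
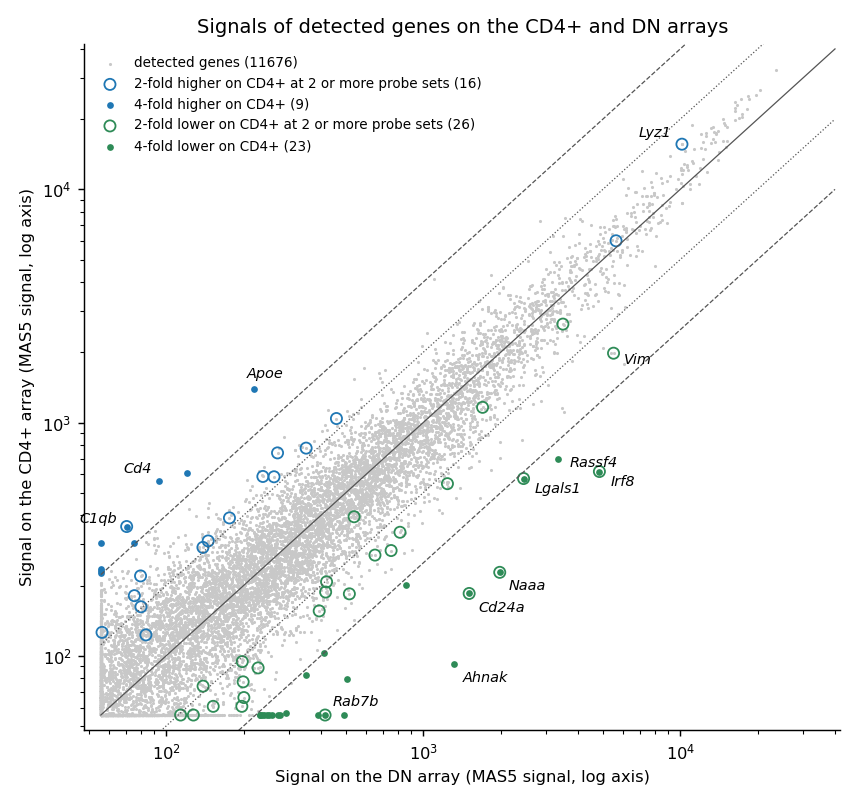
Signal of each detected gene on the DN array (horizontal, log axis) and the CD4+ array (vertical, log axis), with signals under the floor drawn at it. Solid, dotted and dashed lines mark equal signals, 2-fold and 4-fold differences, filled symbols the 9 and 23 genes 4-fold apart, and open circles the 16 and 26 genes 2-fold apart at 2 or more probe sets, at the probe set that represents the gene; the bright genes farthest from the diagonal, such as Irf8, Naaa and Cd24a, lie on the DN side.

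Genes of the CD8+ DC lineage made up the clearest block of differences, and all 6 members past 4-fold were lower on the CD4+ array. Of 25 genes on a list of CD8 DC markers, 24 were on the array and 22 were detected. Their median difference was -1.24, against 0.06 over all detected genes. Of the 22, 19 were lower on the CD4+ array, 12 by 2-fold or more (54.5%, against 3.49% of all detected genes) and 6 by 4-fold or more. The list was chosen with earlier results of these data known, so these shares describe its members and are no test. The only member 2-fold higher was Ly75, the lectin receptor DEC-205 (141 on CD4+, 61.2 on DN).

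Irf8, the transcription factor that CD8+ DCs and plasmacytoid DCs require, gave the best supported of these differences. Its main probe set read 617 on CD4+, 4847 on DN, 1409 on CD8+CX3CR1+ and 13285 on CD8+CX3CR1- cells. The DN signal was 7.86-fold that of CD4+ cells and 36.5% of that of CD8+CX3CR1- cells, and the second Irf8 probe set differed in the same direction (186 on CD4+, 1169 on DN, a log2 difference of -2.65). Irf8 on the CD4+ array was thus the lowest of the 4 arrays. Batf3, the partner factor of the lineage, went the other way, at 2678 on CD4+ and 1668 on DN, and Id2, an inhibitor of E proteins, was 425 on CD4+ and 566 on DN.

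Naaa, a lysosomal enzyme that breaks down N-acylethanolamines, read 228 on CD4+, 1985 on DN, 772 on CD8+CX3CR1+ and 7460 on CD8+CX3CR1- cells, an 8.71-fold difference between CD4+ and DN. A second Naaa probe set agreed in direction (282 and 1340.1), while the third was near the floor on both. Cd24a, which encodes the heat-stable antigen CD24, read 185 on CD4+ and 1509 on DN, against 2280 on CD8+CX3CR1+ and 3593 on CD8+CX3CR1- cells. All 3 of its probe sets were lower on the CD4+ array, with log2 differences of -3.03 to -1.32. In both genes the DN array stood well above the CD4+ array and well below the CD8+CX3CR1- array.

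The remaining 3 of the 6 genes were below the floor in CD4+ cells, so only bounds can be given. Rab7b, a late endosomal GTPase, read 415 on DN cells and 3191 on CD8+CX3CR1- cells, at least 7.45-fold above CD4+, and its second probe set gave at least 4.61-fold. Pdia5, a protein disulphide isomerase of the endoplasmic reticulum, read 491.5 on DN and 3755 on CD8+CX3CR1- cells, at least 8.82-fold above CD4+. P2ry14, the receptor for UDP-glucose, read 390.4 on DN and 2327 on CD8+CX3CR1- cells, at least 7.01-fold above CD4+. Pdia5 and P2ry14 have 1 informative probe set each.

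The other 6 members at least 2-fold lower on CD4+ cells were Tlr3 (59.2 on CD4+, 214 on DN), the receptor for double-stranded RNA, Gcsam (72.2 and 239.5), Ppt1 (1113 and 3527), a lysosomal thioesterase, Cd36 (under the floor and 165), a scavenger receptor, Btla (826 and 1983.5), an inhibitory receptor, and Cd8a. Ppt1, Cd36 and Cd8a have further probe sets that did not show the difference: the highest of them stood at 0.40, -0.05 and 0.74 on the log2 scale. Members with smaller differences included Cadm1 (158 and 181), Wdfy4 (6458 and 7328) and Cxcr3 (229 and 311), each of which was brighter on the CD8+CX3CR1- array. Itgae, which encodes CD103, was higher on CD4+ at its main probe set (0.80 on the log2 scale) and lower at the second (-1.37). Xcr1 and Ttc39a were under the floor on both arrays.

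In the 19 CD8 DC genes that were lower on CD4+ than on DN cells, the DN signal was in turn lower than that on CD8+CX3CR1- cells. The list holds genes known to be high in CD8+ DCs, so the last step of this order follows from its choice. Over the 12 genes at least 2-fold lower on CD4+, the DN signal was 2.73% to 42.0% of that on the CD8+CX3CR1- array, with a median of 16.4%. Cd8a itself had the lowest of these shares. The summed signal of the list was 13597 on CD4+, 26438 on DN, 19227 on CD8+CX3CR1+ and 82084 on CD8+CX3CR1- cells. In sorted bulk cells, more transcript per cell and a larger number of cells that hold it cannot be told apart, and the part of CD8+ DCs in the DN signals was not tested.

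**Figure D2:**
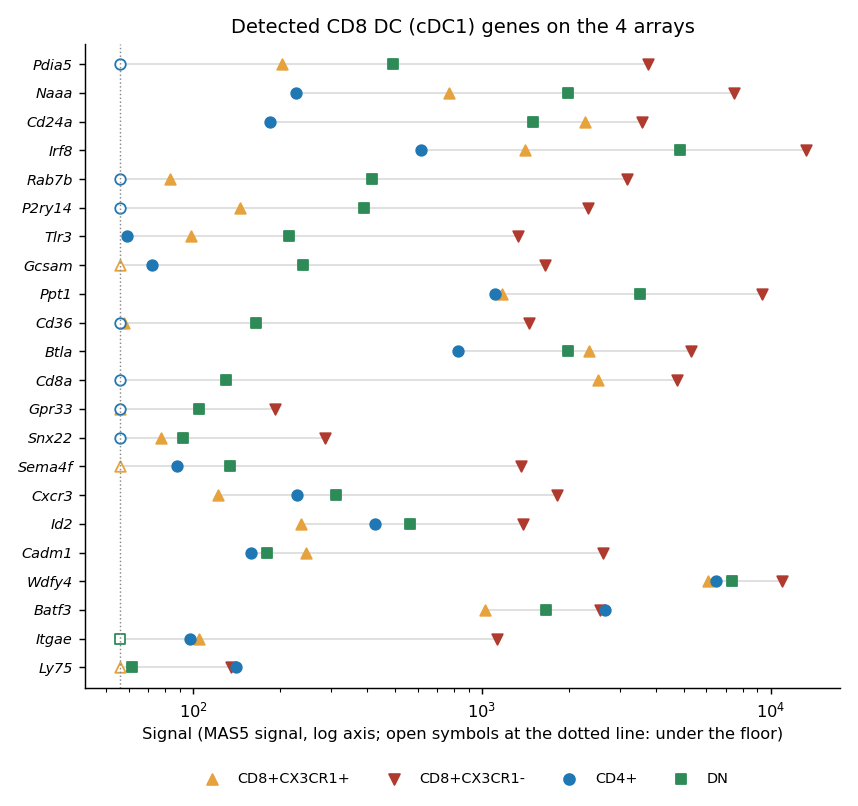
Signal (horizontal, log axis) of the 22 detected CD8 DC genes on the 4 arrays, ordered by the difference between CD4+ and DN. Open symbols on the dotted line are under the floor; in the upper rows the DN symbols lie between those of CD4+ and of CD8+CX3CR1- cells, and 3 genes at the bottom (Batf3, Itgae and Ly75) are brighter on CD4+.

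A second set of genes lower on CD4+ cells did not follow the CD8 DC order. Ahnak, a very large scaffold protein beneath the plasma membrane, had the largest difference of all genes that were above the floor on each array of the pair, 14.3-fold, with 92.5 on CD4+, 1320 on DN, 598 on CD8+CX3CR1+ and 928 on CD8+CX3CR1- cells. It rests on 1 probe set, the other 3 being under the floor, and the mean over all 4 gave a log2 difference of -0.96. Lgals1, which encodes galectin-1, read 575 on CD4+, 2457 on DN, 1136 on CD8+CX3CR1+ and 747 on CD8+CX3CR1- cells, and its 2 probe sets differed by 4.27-fold and 2.68-fold. Vim, the intermediate filament protein vimentin, read 1983 on CD4+, 5501 on DN, 4478 on CD8+CX3CR1+ and 2664 on CD8+CX3CR1- cells, and its 3 probe sets differed by 2.77-fold to 4.76-fold. For these 3 genes the DN array was the brightest of the 4 and the CD4+ array the dimmest.

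Other bright genes past 4-fold were less evenly supported. Rassf4, a Ras association domain protein, read 696 on CD4+ and 3359 on DN at its brightest probe set, but its other 2 probe sets were not lower on CD4+ (0.94 and 0.11 on the log2 scale). Kcnn4, a calcium-activated potassium channel, read 202 on CD4+, 861 on DN and 1471 on CD8+CX3CR1- cells, while its other probe set read 77.2 and 76.0. Nek6, a mitotic kinase, read 82.9 and 350 with a dim second probe set in the same direction, and Septin3, a cytoskeletal GTPase, read 103 and 413 with 2 dimmer probe sets lower by 1.60-fold and 1.63-fold. Rnf185, a ubiquitin ligase, read 79.5 and 507 at a probe set that can match other transcripts, and 154 and 210.5 at its other one.

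The rest of the genes 4-fold lower on CD4+ were dim. Sh3pxd2b, an adaptor of invasive cell protrusions, read 56.9 on CD4+, 293 on DN and 1206.5 on CD8+CX3CR1- cells. Trim26, Rtn4rl1, Met, Wee1, Gnpat, Pop4, Aff3, Rraga and a gene known only by a RIKEN clone name were under the floor on CD4+ cells and between 231 and 278 on DN cells, with bounds of 4.15-fold to 4.98-fold. A second, dim Trim26 probe set went the other way (62.8 on CD4+, under the floor on DN). That of Wee1 was lower by only -0.45 on the log2 scale. Met, the receptor for hepatocyte growth factor, was brighter on CD8+CX3CR1- cells (818), as in the CD8 DC list. Of all 23 genes 4-fold lower on CD4+, 14 had the order of CD4+ under DN under CD8+CX3CR1-. Of all 11676 detected genes, 2002 had this order (17.1%), and 5262 were lower on CD4+ by any size. The first step of the order is fixed by the choice of the 23 genes.

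Apoe and the C1q chains, which belong to a list of red pulp macrophage markers, were higher on CD4+ than on DN cells. Apoe, the lipid carrier apolipoprotein E, read 1397 on CD4+, 221 on DN, 1726 on CD8+CX3CR1+ and 523 on CD8+CX3CR1- cells, a 6.33-fold difference between CD4+ and DN. C1qb, a chain of the first component of complement, read 358 on CD4+, 70.2 on DN, 742 on CD8+CX3CR1+ cells and a signal near the floor on CD8+CX3CR1- cells, and all 3 of its probe sets were higher, by up to 6.18-fold. C1qa (203) and C1qc (206) were under the floor on DN cells, at least 3.64-fold and 3.70-fold below CD4+. For these 4 genes the CD4+ and CD8+CX3CR1+ arrays were both brighter than the DN array.

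The wider macrophage list moved less. Of its 13 detected genes, 11 were higher on CD4+ (54.9% of all detected genes were) and 5 by 2-fold or more (38.5%, against 4.68%). None was 2-fold lower, and the median difference was 0.41. Beside Apoe and the 3 C1q chains, the fifth gene was Cd5l, a secreted macrophage protein, with 148 on CD4+ and a signal under the floor on DN cells (at least 2.65-fold). At their main probe sets, Cd5l, C1qa, C1qc, Axl, Cd163 and Pecam1 were above the floor on CD4+ cells only, so they could only come out higher. Slc40a1 was above it on DN cells only and could only come out lower. With quantile normalisation or equal medians, 12 genes were detected, 9 of them higher and 3 lower on CD4+. Adgre1, which encodes F4/80, read 3068 and 1692, Vcam1 142 and 109, and Spic, the transcription factor of red pulp macrophages, 70.5 and 79.6, with a second probe set at 113 on CD4+ and under the floor on DN cells. Hmox1, Mertk and Fcna were under the floor on both arrays, and Slc40a1, the iron exporter of red pulp macrophages, was under the floor on CD4+ and at 105 on DN cells at its main probe set, but at 215 on CD4+ and under the floor on DN cells at its second (at least 3.86-fold). The summed signal of the list was 6013 on CD4+ and 2606 on DN cells, and 12 and 7 of its members were above the floor. Adgre1 and Apoe, its brightest members on both arrays, made up most of each sum. The CD4+ array also had more of all probe sets above the floor. The part of macrophages in these differences was not tested.

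Beside Cd4, Apoe and C1qb, 6 genes were at least 4-fold higher on CD4+, most of them dim. Amdhd2, an enzyme of amino sugar breakdown, read 610 on CD4+ and 121 on DN (5.05-fold). Slc39a13, a zinc transporter, read 306 and 74.7 (4.09-fold). Cxcl1 (236), a chemokine for neutrophils, Fpr2 (227), a formyl peptide receptor, Tex264 (231), a receptor for autophagy of the endoplasmic reticulum, and Fbxw22 (305.5) were all under the floor on DN cells, with bounds of 4.08-fold to 5.48-fold. Cxcl1 had a second probe set that was barely above the floor on CD4+ cells (59.9). Of the 9 genes 4-fold higher on CD4+ than on DN, 7 were also higher on CD8+CX3CR1+ than on DN cells. The 9 were chosen for a low DN signal relative to CD4+, so this count follows in part from the choice. The share over all detected genes was not counted, so no likeness of the CD4+ and CD8+CX3CR1+ arrays is read from it.

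Several probe sets of one gene give a check on probe error, though not on the spread between mice or sorts. Of 4933 genes with 2 or more probe sets above the floor, 16 had all of them higher on CD4+ with at least 2 past 2-fold (0.324%), and 26 had all of them lower with at least 2 past 2-fold (0.527%). Against these 42 stood 32 genes (0.649%) whose probe sets differed 2-fold in both directions, such as Mtf1 (-1.14 to 1.90), Hdlbp (-1.64 to 1.31) and Hmgcs1 (-1.20 to 1.63). In other pairs of arrays scored the same way, one-directional genes outnumbered these by more: 220 against 14 for CD8+CX3CR1- and DN, 321 against 42 for CD8+CX3CR1- and CD4+, and 77 against 12 for CD8+CX3CR1+ and DN. Of the 954 genes 2-fold apart at the main probe set, 367 had a further probe set above the floor, and in 185 of those all probe sets had one direction.

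Genes lower on CD4+ by this rule were Irf8, Rab7b, Cd24a and Naaa of the CD8 DC list, Vim and Lgals1, and 20 others. Those with every probe set past 2-fold numbered 15. Unc119b, a carrier of lipid-modified proteins, read 283 on CD4+, 750.1 on DN and 3011 on CD8+CX3CR1- cells, with log2 differences of -1.41 and -1.54 at its 2 probe sets. Cks2, a subunit of cyclin-dependent kinases, read 547 and 1242 at one probe set and 233 and 1198 at the other. Sema4a, a membrane semaphorin, read 208 and 421 at one probe set and under the floor and 195 at the other. Bach2, a transcriptional repressor, read 94.4 on CD4+ and 198 on DN, and 553 on CD8+CX3CR1+ cells, the brightest array for it.

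Other genes of this group were spread over many functions. Map4k4, a kinase upstream of JNK, was lower at 4 of 4 probe sets, with log2 differences of -2.22 to -0.80 (88.7 on CD4+ and 228 on DN at the brightest). Dbi, an acyl-CoA binding protein, was lower at 4 of 4 probe sets (-1.49 to -0.60), with 184 on CD4+ and 516 on DN. Plk4, the kinase of centriole duplication, read 60.7 and 197, and Smc4, a condensin subunit, read 1162 and 1702 with log2 differences of -1.33 and -1.47 at 2 further probe sets. Pvr, the poliovirus receptor and a ligand of Tigit, read 188 and 417. Prkab2 (338.5 and 812), Lyrm2 (156 and 394), Nmd3 (60.7 and 152), BC055324 (77.3 and 199), Mob3b (under the floor and 128) and Acyp1 (under the floor and 114) were each 2-fold lower at both of their probe sets.

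The 16 genes higher on CD4+ by this rule were fewer than the 26 lower ones, an order that a floor at the 75th percentile (76 and 41) and no floor (556 and 273) turned. Rab6b, a Golgi GTPase, read 741 on CD4+, 271 on DN, 189 on CD8+CX3CR1+ and 297.5 on CD8+CX3CR1- cells, with both probe sets higher (1.34 and 1.45 on the log2 scale). Abcg3, a membrane transporter, read 1041 and 459.7 (1.18 and 1.21). Adgrl3, an adhesion receptor known as latrophilin 3, read 585 and 263, with 3 of 3 probe sets higher by 1.16 to 1.73, and was at 82.0 or less on both CD8+ arrays. Rab6b, Abcg3 and Adgrl3 were each brighter on CD4+ than on any other of the 4 arrays.

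Krt42 (220.0 on CD4+, 79.5 on DN), Dclre1b (181 and 75.2) and Nr2f6 (162 and 79.8) completed, with Rab6b, Abcg3 and Adgrl3, the 6 genes past 2-fold at every probe set. Scn2b, a sodium channel subunit, read 587 and 238, and Spire1, an actin nucleator, read 777 and 350.4, each with further probe sets in the same direction. Lyz1, a lysozyme, read 15617 and 10154 at its main probe set (1.54-fold) and 9470.5 and 3465 at another (2.73-fold). These bright probe sets can match other transcripts, so their signals may not be of Lyz1 alone. The remaining Lyz1 probe set was far dimmer and was also higher on CD4+ by more than 2-fold. Samhd1, a nucleotide hydrolase that restricts viruses, differed by 1.07-fold at its brightest probe set (6017 and 5626) but by 2.53-fold and 2.81-fold at 2 dimmer ones. Both cases show that the size of a difference varied among the probe sets of a gene.

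**Figure D3:**
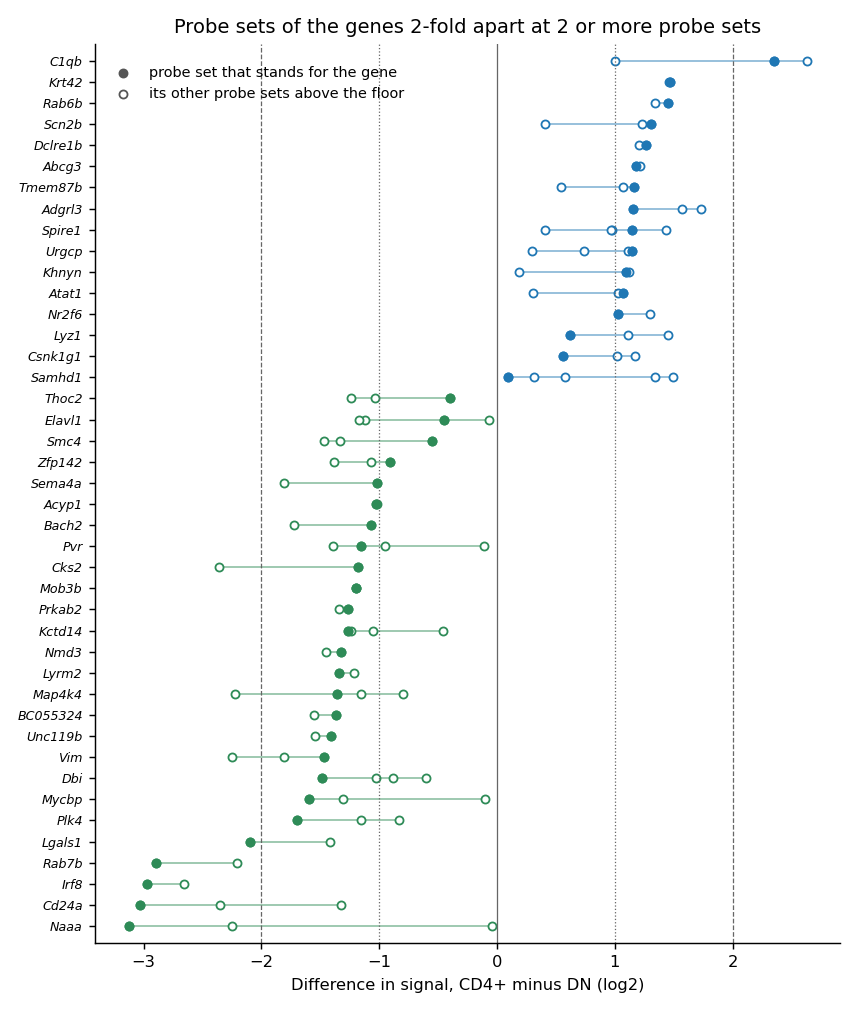
Difference in signal (log2, CD4+ minus DN) of each probe set above the floor for the 16 genes higher and the 26 genes lower on CD4+ at 2 or more probe sets. Filled points represent the gene elsewhere in the text; only Irf8 and Rab7b have all their probe sets beyond -2, and genes such as Naaa and Samhd1 hold probe sets near 0.

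Most markers of the CD11b+ lineage were less than 2-fold apart between CD4+ and DN cells. Of 19 detected genes on that list, Cd4 was the only one 2-fold higher (5.26%, against 4.68% of all detected genes) and 2 were 2-fold lower (10.5%, against 3.49%), with a median of 0.05. Klf4, a transcription factor of this lineage, read 477 on CD4+ and 1008 on DN, with a second probe set at 0.42 on the log2 scale, and Clec10a, a galactose-binding lectin, read 178.5 and 369.7. Sirpa (963 and 687), Irf4 (305 and 407), Esam (582 and 464), Dtx1 (2895 and 3111), a Notch target, and S100a4 (7230 and 7578) were 1.05-fold to 1.40-fold apart. The summed signal of the list was 40679 on CD4+ and 33976 on DN, but 1513 on CD8+CX3CR1- cells. The Notch list had 24 detected genes, 12 higher and 12 lower, and Psen2, a subunit of gamma-secretase, was its only member 2-fold apart (222 and 106).

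Plasmacytoid DC genes were mixed. Of 14 detected, 5 were 2-fold lower (35.7%, against 3.49% of all detected genes) and 2 were 2-fold higher on CD4+ (14.3%, against 4.68%), with a median of -0.39. Tcf4, the factor that plasmacytoid DCs require, read 470 on CD4+, 1135 on DN and 3489 on CD8+CX3CR1+ cells, but its 5 probe sets ran from -1.27 to 0.81. Atp1b1, an ion pump subunit, read 62.1 and 166.5, with its 4 probe sets from -1.42 to 0.77. Tlr7, the receptor for single-stranded RNA, read 452 and 147 (3.09-fold higher on CD4+), although 1 of its 3 probe sets went the other way (-0.78). Siglech and Ly6d, markers that define plasmacytoid DCs, were under the floor on both arrays.

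Monocyte genes were also split. Of 16 detected, 4 were 2-fold higher (25%, against 4.68% of all detected genes) and 2 were 2-fold lower on CD4+ (12.5%, against 3.49%), with a median of 0.45. Lyz2, a lysozyme, read 7284 on CD4+ and 2834 on DN (2.57-fold), Csf3r, the receptor for G-CSF, read 300.4 and 119, and Fcgr3, an Fc receptor, read 153 and 63.4. Ccr2, the receptor that guides monocytes from bone marrow, went the other way, with 143 on CD4+ and 539.6 on DN (3.78-fold lower), though its 4 probe sets ran from -1.92 to 0.30. S100a8, S100a9, Vcan and F13a1 were under the floor on both arrays. Markers of T cells (9 detected, 1 of them 2-fold apart, Zap70 with 136.5 and 66.2), B cells (13 detected, 1 of them 2-fold apart, Cd79b with 402 and 178) and NK cells (7 detected, 1 of them 2-fold apart, Klrk1 with 76.5 and 305) each held 1 such gene, or 11.1%, 7.69% and 14.3% of those detected, against 4.68% higher and 3.49% lower over all genes; single genes set these shares. Cd3d, Cd3g and Cd247 were under the floor on both arrays, and Cd3e was above the floor on DN cells (66.8) but not on CD4+ cells.

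Genes that type I interferons induce were more often higher on CD4+ cells. Of 45 detected, 30 were higher on CD4+ (54.9% of all detected genes were), 7 by 2-fold or more (15.6%, against 4.68%) and 1 was 2-fold lower, with a median of 0.34. With equal medians, 25 were higher and 20 lower, with a median of 0.09 against -0.17 over all genes. Ifit3, which hinders translation of viral RNA, read 1133 on CD4+, 427 on DN, 158 on CD8+CX3CR1+ cells and a signal under the floor on CD8+CX3CR1- cells, 2.65-fold higher on CD4+ than on DN. Usp18, which removes the ubiquitin-like protein Isg15, read 645 on CD4+, 241 on DN, 368 on CD8+CX3CR1+ and 174.5 on CD8+CX3CR1- cells (2.68-fold). Oas1b read 153.5 on CD4+ and was under the floor on DN cells (at least 2.76-fold).

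Oasl2 (536 and 215.5), Ifit2 (932 and 421), Isg20 (1068 and 516) and Parp12 (367 and 166) made up the rest of the 7. None of the 7 had a second probe set above the floor, and no gene of the list met the rule of several probe sets. Bst2, which encodes the membrane tether known as tetherin and is also a plasmacytoid DC marker, was the member lower on CD4+, with 89.8 on CD4+, 232 on DN, 659.5 on CD8+CX3CR1+ and 235.5 on CD8+CX3CR1- cells (2.58-fold). Among the brighter members differences were small, as in Ifi35 (5708 and 6766.5) and Trim25 (7332.5 and 7455). The GTPases that interferon gamma mainly induces had 8 detected members, 4 higher and 4 lower, none of them 2-fold apart.

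The interferon-stimulated response element, a short promoter motif of genes that type I interferons induce, was sought on both strands, as GAAA followed by any 2 bases and GAAA, in windows from 250 bases before to 50 after each gene's start (RefSeq, build GRCm38.p6). It was in the windows of 3.99% of 27025 genes and of 16 of the 34 detected interferon genes that have a window (47.1%). Of the 7 genes 2-fold higher on CD4+, 5 have a window, and Ifit3 was the only one with the element. The 250 bases before the start of Ifit3 (chr19:34583279-34583528, plus strand) and of Bst2 (chr8:71537473-71537722, minus strand) are shown because both hold the element while their signals differed in opposite directions. Capitals mark the element, on the opposite strand in Ifit3, with 2 separate copies, and as 2 overlapping copies in Bst2.
Ifit3: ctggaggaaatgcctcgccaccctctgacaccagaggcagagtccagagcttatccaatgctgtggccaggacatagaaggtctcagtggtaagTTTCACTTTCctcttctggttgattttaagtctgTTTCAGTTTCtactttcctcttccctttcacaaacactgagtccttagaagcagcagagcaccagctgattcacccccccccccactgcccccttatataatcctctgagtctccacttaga
Bst2: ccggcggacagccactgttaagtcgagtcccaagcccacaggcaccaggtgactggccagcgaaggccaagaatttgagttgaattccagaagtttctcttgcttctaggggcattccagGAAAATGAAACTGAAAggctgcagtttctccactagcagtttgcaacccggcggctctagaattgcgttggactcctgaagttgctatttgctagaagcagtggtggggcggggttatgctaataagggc
A match is a run of letters and not evidence of binding. Of the 12 CD8 DC genes 2-fold lower on CD4+, 10 have a window, and none of the 10 holds the element. With a share of 3.99% over all genes, 10 windows are too few for this to say anything. Other motifs sought the same way were each in the window of at most 1 of the 10.

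**Figure D4:**
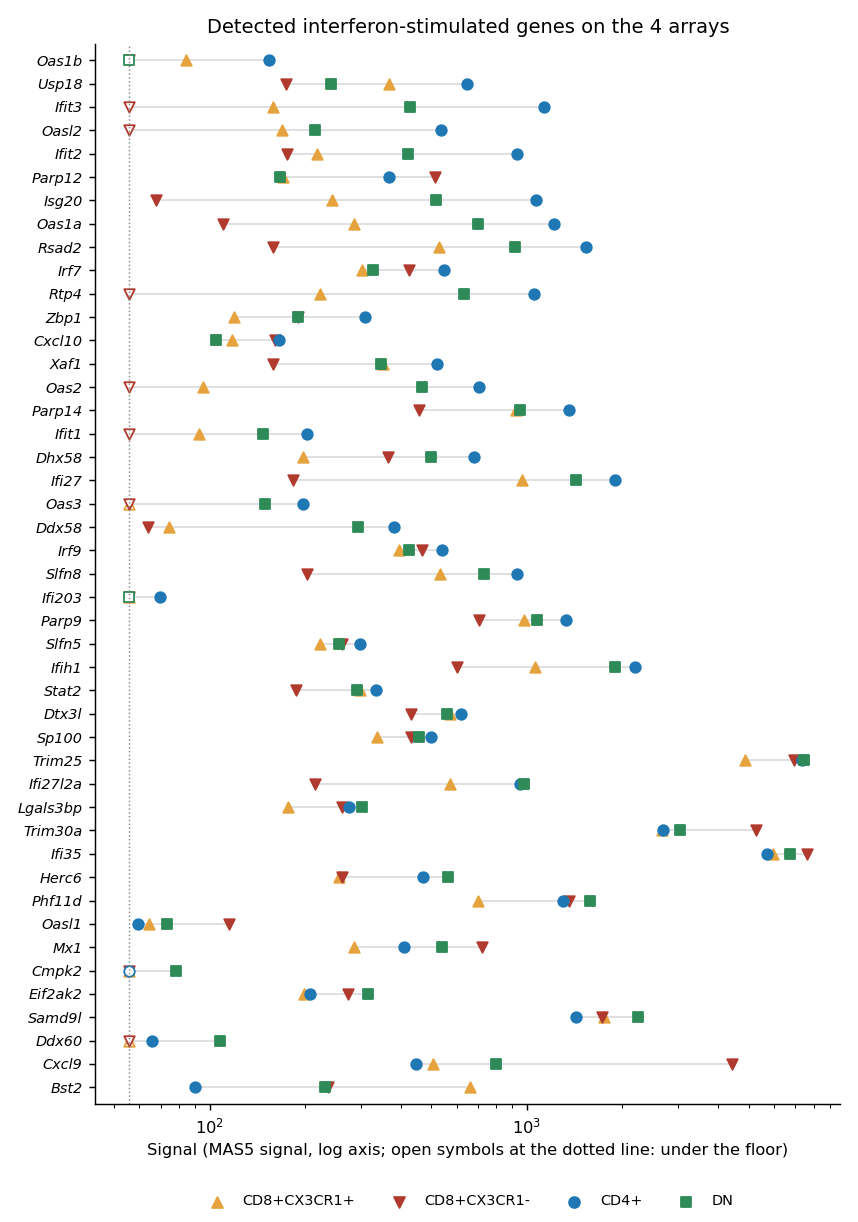
Signal (horizontal, log axis) of the 45 detected interferon-stimulated genes on the 4 arrays, ordered by the difference between CD4+ and DN. CD4+ symbols lie to the right of DN symbols in 30 rows, from Oas1b at the top, and Bst2 at the bottom is dimmest on CD4+; CD8+CX3CR1- cells are the dimmest of the 4 arrays in many of the upper rows.

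Genes of the cell cycle were slightly but widely lower on CD4+ cells. Of 57 detected, 47 were lower (82.5%, against 45.1% of all detected genes), 7 by 2-fold or more (12.3%, against 3.49%) and 1 was 2-fold higher, with a median of -0.39. Cdc20, which activates the anaphase-promoting complex, read 276.5 on CD4+, 841 on DN, 384 on CD8+CX3CR1+ and 884 on CD8+CX3CR1- cells (3.04-fold), and its second probe set was also lower (-0.71). Kif11, a spindle motor, read 71.2 on CD4+ and 219 on DN, but its 3 probe sets ran from -1.62 to 0.51. Mad2l1, of the spindle checkpoint, read 296 and 663. Mki67, the proliferation marker Ki-67, read 2262 on CD4+ and 2879 on DN, and Pcna, the replication clamp, 3984 and 5774. Foxm1 was the gene 2-fold higher on CD4+ (125 and under the floor), though its second probe set was at -0.24.

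Genes of protein folding and immediate early genes also leaned to DN cells, mostly by small amounts. Of 30 detected genes of the unfolded protein response and protein folding in the endoplasmic reticulum, 25 were lower on CD4+ (45.1% of all detected genes were). Their median was -0.37, and Pdia5 was the only one past 2-fold. Hsp90b1, the chaperone GRP94, came next with 542 on CD4+ and 1053.5 on DN. The order of CD4+ under DN under CD8+CX3CR1- held for 22 of these 30 genes (73.3%, against 17.1% of all). The first step of this order was already met by the 25 lower genes. Over all detected genes, 5262 met the first step and 2002 the whole order. Of 48 detected immediate early and stress genes, 4 were 2-fold lower on CD4+ (8.33%, against 3.49% of all detected genes) and none 2-fold higher, with a median of -0.23. Nr4a2, an orphan nuclear receptor, read 626 on CD4+ and 1835 on DN (2.93-fold) and had 5 probe sets from -1.55 to 0.21, Fosl2, a subunit of AP-1, 314 and 647, and Sgk1, a kinase induced by serum, 269 and 553.

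Genes of MHC class II presentation were higher on CD4+ by a modest amount. Of 25 detected, 20 were higher (54.9% of all detected genes were) and 3 of them by 2-fold (12.0%, against 4.68%), with a median of 0.40. H2-Aa read 32503 on CD4+ and 23491.5 on DN, and Cd74, the invariant chain, 18542.5 and 13390.3. These are among the brightest genes, where the whole scale leaned to CD4+, and with quantile normalisation the list's median was 0.19. Cd81, a tetraspanin, read 1713 on CD4+, 587.5 on DN and 4820 on CD8+CX3CR1- cells (2.92-fold), Ctsz, a lysosomal protease, read 4279 and 1828 but had 3 probe sets from -0.50 to 1.23, and H2-Eb2 read 2129 and 986. The cytosolic ribosomal proteins show the same lean: 33 of 38 were higher on CD4+ (54.9% of all detected genes were) with a median of 0.29. After quantile normalisation 23 were higher with a median of 0.03. The respiratory chain had 29 of 58 genes higher and 29 lower.

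Receptors for microbial products and their partners differed in single genes. Of 25 detected Toll-like receptor genes and adaptors, 4 were 2-fold higher (16%, against 4.68% of all detected genes) and 2 were 2-fold lower on CD4+ (8%, against 3.49%), with a median of 0.30. Tlr5, the flagellin receptor, read 338 on CD4+ and 85.4 on DN, Tlr6, a partner of Tlr2, read 331 and 118, and Ly96, the partner of Tlr4, read 205 and 81.3. Tlr3 and Cd14 (197 and 395) were the 2 lower ones. Tlr2 was alike on both arrays (709 and 803). Among 22 detected C-type lectins, 4 were higher and 4 lower by 2-fold (18.2% each way). Clec4n, which encodes Dectin-2, read 868 on CD4+ and 288 on DN (3.02-fold), with a second probe set higher by 0.75, Clec1b read 169 and 55.8, and Cd209d (69.2 and 179) and Cd209e (under the floor and 187.5) went the other way. Of 23 detected Fc, SIRP, Cd300 and paired receptors, 3 were 2-fold higher (13.04%) and none 2-fold lower, led by Trem3 (267 and 102).

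Molecules of T cell costimulation and cytokine signalling differed in both directions. Of 25 detected costimulatory and coinhibitory molecules, 3 were 2-fold higher (12.0%, against 4.68% of all detected genes) and 4 were 2-fold lower on CD4+ (16%, against 3.49%), with a median of 0.05. Of 26 detected genes of mature and migratory DCs, 4 were 2-fold higher (15.4%) and none 2-fold lower, with a median of 0.24. Icosl, the ligand of ICOS, read 789 on CD4+ and 339 on DN, Pdcd1lg2, which encodes PD-L2, read 457 and 210.3, and Cd274, which encodes PD-L1, read 505 and 241. All 3 were brighter on CD4+ than on any of the other arrays. Lgals9, a ligand of Tim-3, was under the floor on CD4+ and at 132 on DN cells. Tnfrsf4, which encodes OX40, read 199.5 on CD4+ and 66.3 on DN (3.01-fold). Of 36 detected cytokines and receptors, 27 were higher on CD4+ (54.9% of all detected genes were) and 4 of them by 2-fold (11.1%). Of the same 36, 1 was 2-fold lower (2.78%), and the median was 0.27. Il10rb, a chain of the interleukin-10 receptor, read 1541 and 540 (2.85-fold) at one probe set and was alike at the other, and Il27ra read 154 on CD4+ and was under the floor on DN cells.

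Among 45 detected DC transcription factors, 6 were 2-fold lower on CD4+ (13.3%, against 3.49% of all detected genes) and none 2-fold higher. Beside Irf8, Nr4a2, Tcf4 and Klf4, these were Cebpa (under the floor and 118) and Nfil3 (under the floor and 117), both close to the floor. Relb, a member of the NF-kB family, was 1.75-fold higher on CD4+ (3119 and 1782). Lipid genes differed in both directions, enzymes of synthesis included. Of 33 detected, 4 were 2-fold higher (12.1%) and 2 were 2-fold lower (6.06%). Sqle, an enzyme of cholesterol synthesis, read 106 on CD4+ and 385 on DN (3.63-fold lower), while Dhcr7, another, read 176 and 69.5 (2.53-fold higher). Fasn, the fatty acid synthase, read 285 and 679, while Scd1, a fatty acid desaturase, read 163 and was under the floor on DN cells. Npc1, which exports cholesterol from lysosomes, read 302 and 125, and Abca1, the cholesterol efflux pump, read 156 and was under the floor on DN cells. Further probe sets of Abca1 and Scd1 differed by 0.26 or less on the log2 scale. Over the list, 16 genes were higher and 17 lower. A further 12 lists (marginal zone macrophages, granulocytes, erythroid and stromal cells, chemokines and their receptors, the TNF family, MHC class I, integrins, glycolysis, TGF-beta and complement) had medians between -0.17 and 0.42, with at most 3 genes 2-fold higher and at most 2 genes 2-fold lower in each. The most higher were 3 of 10 complement genes, all C1q chains, and 3 of 30 integrin and adhesion genes (4.68% of all detected genes). The most lower were 2 of 13 chemokine receptors and 2 of 25 glycolysis genes (3.49% of all detected genes).

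**Figure D5:**
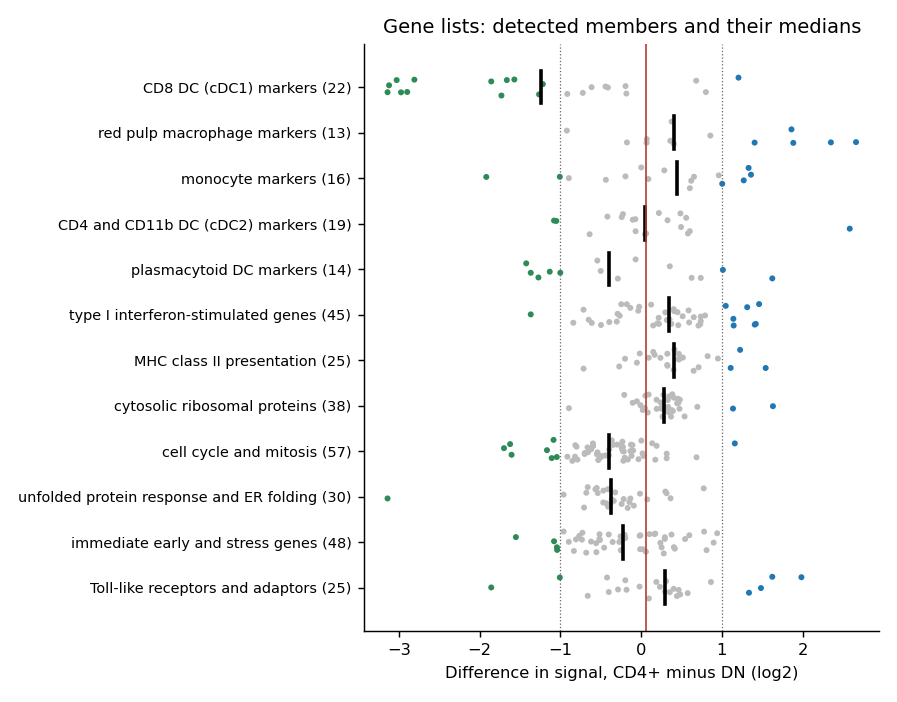
Difference in signal (log2, CD4+ minus DN) of the detected members of 12 gene lists, with the number of members in brackets, the list's median as a black bar and the median of all detected genes (0.06) as a red line. Blue and green points are past 2-fold (dotted lines); the CD8 DC list has its median at -1.24 and 6 points beyond -2, and the other medians lie between -0.39 and 0.45.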

How the data were processed

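The 4 arrays were deposited as a table of MAS5 signal intensity per probe set on a linear scale, per the submitters' processing notes. The sources used here do not give MAS5's version and options, and its detection calls were not used. From the values, the authors had scaled each array to a trimmed mean (2% cut at each end) of 150.0. Symbols came from the platform annotation: 34945 probe sets had 1 symbol, 932 several and 9160 none, beside 64 control probe sets, and only the first were used (99.4% found in RefSeq by Entrez number). The comparison, floor, probe set rules and 9 alternatives are described with the results, and no test was run with 1 array a group. The counting steps were tested on simulated data. Python 3.11.15, pandas 2.3.3, numpy 2.4.6 and matplotlib 3.10.9 were used.

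Named genes were the sort markers, all genes 4-fold apart, up to 20 each way by several probe sets, and up to 4 of each of 38 lists; further list members, and genes of families, were named after their values were seen. The members and lists were chosen with earlier results of these data known. The number of arrays limits the precision.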

Additional observations from a re-analysis of the deposited data

How the results depend on the processing

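With equal array medians, 5 genes were 4-fold higher and 33 lower on CD4+, and 4 and 94 were 2-fold apart at 2 or more probe sets. A floor at the 75th percentile gave 50, 39, 76 and 41 in the same order, one at the 95th percentile 6, 13, 7 and 21, and no floor 1997, 1216, 556 and 273. The mean over all probe sets of a gene left 8 genes 4-fold lower. Leaving out probe sets with _x, _s or _a in their names left 10 and 11 genes with 2 or more probe sets 2-fold apart, and asking for 3 probe sets left 1 and 4. Of the named genes at least 2-fold apart, 6 changed direction: A930005H10Rik went from 1.33 to -0.063 on the log2 scale with the mean over probe sets, and without probe sets with _x, _s or _a Ccr9 went from -1.13 to 0.29, Cd151 from 1.48 to -0.11, Itgb1 from 1.01 to -0.61, Ndrg1 from -1.15 to 0.58 and Bad from 1.72 to -1.02. The cause was not tested. The median of the CD8 DC list was -1.38 with equal medians, -1.62, -1.0 and -1.79 with the 75th percentile, 95th percentile and no floor, and -0.79 with the mean over probe sets. The macrophage median was 0.17 with equal medians over the same 13 genes (0.39 over the 12 then detected), 0.86 with the 75th percentile and 1.42 with no floor. The interferon median was 0.086 with equal medians and 0.22 with the mean over probe sets, and the cell cycle median -0.64 and -0.31 in the same order. Of 31 named genes 4-fold apart, 24 were under 4-fold in at least 1 alternative. Among them were Ahnak, Cd4, Lgals1 and Naaa with the mean over probe sets (log2 -0.96, 1.51, -1.76 and -1.81). Irf8, Cd24a, Pdia5, P2ry14, Apoe, Amdhd2 and Fbxw22 were not. Of these, all but Irf8 and Cd24a have 1 probe set each, which the mean over probe sets could not change. The only Apoe probe set is an _a one, so leaving those out gave no value for it. No paired analysis was possible because each group has 1 array, and for the same reason no replicate could be left out. Signals under the floor limit what can be said: 4 of the 9 and 12 of the 23 genes 4-fold apart are bounds.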

Other observations

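Families beyond the lists were looked at after the values were seen. Of 5 detected galectins, Lgals1 and Lgals9 were 2-fold lower on CD4+, while Lgals4 (157 on CD4+, 85.0 on DN) and Lgals8 (522 and 296) were higher and Lgals3 was 4124 and 5226. The annexins, which bind membranes in the presence of calcium and some of which partner Ahnak, had 9 detected members, none of them 2-fold apart, with Anxa1 at 1591 on CD4+ and 2843.5 on DN and Anxa2 at 3211 and 4356.5. Of 6 detected S100a genes none was 2-fold apart, and S100a10, the partner of Anxa2, came nearest with 194 on CD4+ and 377.5 on DN. Of 9 detected septins, 7 were lower on CD4+ (45.1% of all detected genes were), led by Septin3, Septin9 (279 and 529) and Septin2 (215 and 379).

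In the Cd209 family, 5 of 6 detected genes were lower on CD4+ (45.1% of all detected genes were). Cd209d and Cd209e, which were low or under the floor on CD4+ cells, were brightest on CD8+CX3CR1+ cells (1336 and 951). Cd209a was 651 on CD4+ and 768.5 on DN.

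Of 10092 probe sets without a single gene name, 4243 were above the floor on the CD4+ or DN array, and 2 were 4-fold higher and 2 were 4-fold lower on CD4+.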
